A study of Homo sapiens with 4 samples.

Results

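The mitotic kinases described here are 10 protein kinases chosen by name, CDK1, WEE1, AURKA, AURKB, PLK1, PLK4, BUB1, BUB1B, TTK and NEK2, out of 20263 genes in a table of read counts. The cells were MDA-MB-231, an established human breast cancer line of the triple-negative kind, kept in medium with serum. One group was given YW-LF for 24 h (2 libraries) and the other its solvent control DMSO (2 libraries); the series title describes YW-LF as derived from ribociclib, a drug that inhibits CDK4 and CDK6. No dose is given in the sources used here. Nothing in the labels ties the libraries of a group to different cultures, and the p-values then reflect only the spread among these libraries, which may be technical. All 10 kinases were found by symbol and all 10 passed the filter on low counts, with 672 to 8770 counts each per library.

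Entry into mitosis is driven by CDK1 bound to cyclins A and B. WEE1 holds CDK1 inactive by phosphorylation, and Aurora A and Polo-like kinase 1 help to switch it on. Aurora B, BUB1, BUBR1 (the product of BUB1B) and MPS1 (the product of TTK) act at kinetochores, where they correct faulty attachments and run the spindle checkpoint that delays chromosome separation. PLK4 starts centriole duplication, and NEK2 separates the centrosomes. The mRNAs of most of these kinases are low in G1 and high in G2 and mitosis, a pattern that in human cells depends on the MuvB complex, which binds a short promoter element called the cell cycle genes homology region (CHR), and on CCAAT boxes bound by NF-Y.

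To show these elements, promoter windows from RefSeq (GRCh38.p14, 250 bases before to 50 after each annotated start) were searched on both strands for the CHR letters TTTGAA, the variant TTCGAA, and CCAAT. The table matched 7 of the 10 kinases, some with several starts; no window of AURKA, WEE1 or TTK was used. Either CHR form lay in a window of 5 of the 7 (CDK1, PLK1, PLK4, BUB1 and BUB1B), against 19.5% of 27305 genes in that table, and CCAAT lay in 6 of the 7, against 39.7%. These shares count a gene once if any of its windows holds the letters. The 7 kinases had 11 windows and the 27305 genes had 35116. By window, either CHR form lay in 54.5% for the kinases against 16.4%, and CCAAT in 72.7% against 34.6%. The 150 bases before the start are shown for the pair of kinases with the lowest fold changes, for CDK1 with several matches, and for NEK2, which has CCAAT but no CHR match; capitals mark CHR and CCAAT letters in either orientation, and every line reads 5′ to 3′ on the gene's strand.
BUB1B: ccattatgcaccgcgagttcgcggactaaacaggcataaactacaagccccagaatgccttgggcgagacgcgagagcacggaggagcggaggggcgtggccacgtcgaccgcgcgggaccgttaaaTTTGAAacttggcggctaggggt
PLK1: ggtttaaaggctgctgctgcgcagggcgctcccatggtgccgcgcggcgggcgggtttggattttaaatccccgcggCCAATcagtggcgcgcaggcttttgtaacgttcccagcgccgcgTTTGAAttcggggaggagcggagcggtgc
CDK1: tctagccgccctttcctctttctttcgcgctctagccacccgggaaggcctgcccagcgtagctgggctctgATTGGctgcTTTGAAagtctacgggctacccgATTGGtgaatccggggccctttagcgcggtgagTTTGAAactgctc
NEK2: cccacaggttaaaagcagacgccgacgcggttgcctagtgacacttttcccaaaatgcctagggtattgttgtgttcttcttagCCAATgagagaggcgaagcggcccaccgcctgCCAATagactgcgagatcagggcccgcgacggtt
The BUB1B line is chr15:40160919-40161068 on the plus strand and holds a CHR match whose first base lies at -23 from the start. The PLK1 line is chr16:23678739-23678888, plus strand, with CCAAT from -73 and the CHR match from -29; this RefSeq start lies downstream of the GENCODE start of the gene given below. The CDK1 line is chr10:60778328-60778477, plus strand, before the downstream of its 2 starts, with CHR matches from -69 and -13. The NEK2 line is chr1:211675622-211675771 on the minus strand, with CCAAT from -66 and -34. In BUB1 the TTCGAA match starts at 2 bases past the start, beyond the stretch before it. The only CHR match of PLK4 lies 39 to 44 bases past the most upstream of its 3 starts, on the other strand. Only CDK1, PLK1 and BUB1B thus have a CHR match before a start. The 3 searched motifs do not overlap each other in these windows. A match is a description of letters and does not show that a factor binds there.

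**Figure D1:**
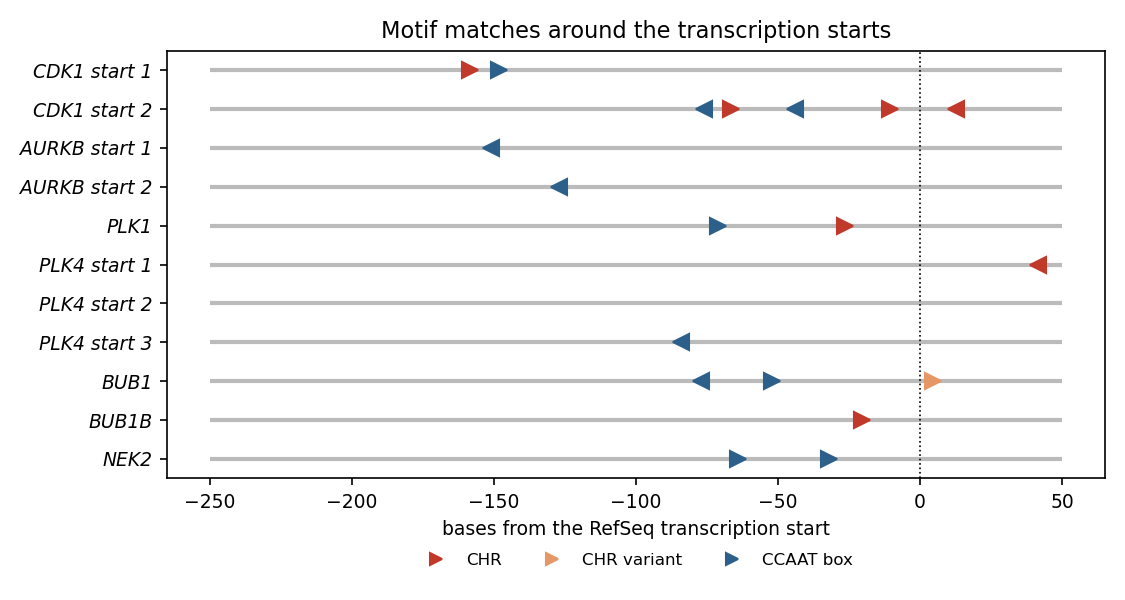
Positions of CHR, CHR variant and CCAAT matches (triangles, pointing right on the gene's strand and left on the other) along each RefSeq window, in bases from the transcription start. CHR matches from -29, -23 and -13 lie close to the starts of PLK1, BUB1B and CDK1, while AURKB and NEK2 show CCAAT alone.

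The libraries held 40218240 and 36886858 counts with YW-LF and 34774542 and 37754168 with DMSO. Their levels are given as CPM, counts per 1000000 scaled by the trimmed mean of M-values (TMM). The TMM factors were 1.25 and 0.838 for the YW-LF libraries, against 1.08 and 0.886 for the DMSO libraries. The Pearson correlation in log2 CPM across 13816 genes, which are not independent replicates, was 0.907 within the YW-LF pair and 0.976 within the DMSO pair. The share of counts from mitochondrially encoded genes was 3.14% and 6.58% in the YW-LF libraries, against 8.68% and 21.7% in the DMSO libraries. Genes expected in the line were present, led by VIM at 2650 unscaled CPM in each YW-LF library, against 3580 and 3680 in the DMSO libraries. Of the luminal and epithelial markers KRT5 was at 0 counts throughout, CDH1 at 0 to 13 counts and ESR1 at 4 to 33 counts, while ERBB2 was highest at 25.3 to 86.5 unscaled CPM. The 8 markers of blood, endothelial, fibroblast and liver cells summed to 11.5 and 2.11 unscaled CPM with YW-LF and to 9.44 and 8.18 with DMSO. Among them CD3E was at 0 in all libraries. ALB had 59 and 55 counts with YW-LF, against 2 and 6 with DMSO. COL1A1 had 329 and 15 counts with YW-LF, against 261 and 265 with DMSO.

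Of the 10 mitotic kinases, 9 had less mRNA in both YW-LF libraries than in both DMSO libraries, and WEE1 did not. Over all 13816 genes tested this separation downward was seen in 27.8%. By mean CPM the kinases ranked from percentile 59.7 (PLK4) to 91.6 (BUB1) of these genes. The share among genes of like level was not computed. The median log2 fold change of the 10 was -0.93, against 0.06 over all genes tested. Of 8 marker genes of the line itself, 6 also lay below DMSO in both YW-LF libraries and 0 above, with a median of -0.69, and 0 passed in edgeR. The lowest was the growth factor receptor EGFR at -1.89 (SE 0.64, edgeR adjusted p = 0.186), with 490 and 108 unscaled CPM in the YW-LF libraries, against 936 and 937 in the DMSO libraries. The part of this shift in the result for the kinases was not tested. Together the 10 took 0.0626% and 0.0489% of all counts in the YW-LF libraries, against 0.121% and 0.0957% in the DMSO libraries. No kinase passed the threshold of 0.05 in the quasi-likelihood test of edgeR after Benjamini-Hochberg adjustment over all genes, where 0 of 13816 genes passed in either direction. At an unadjusted p under 0.05 in the same test, 6 of the 10 were lower and 0 higher, where 9.01% of all genes were lower and 11.5% higher. DESeq2 called 3 of the 10 lower (BUB1B, PLK1 and AURKA) and 0 higher, where it called 3.68% of 16718 genes lower and 4.99% higher. These 16718 include genes that the filter on low counts left out of the 13816. Limma-voom called 0 genes. In such bulk libraries, fewer cells in G2 and mitosis and less kinase mRNA per cell cannot be told apart. With mitochondrial genes removed before scaling, 9 kinases were below DMSO in both libraries and the median was -0.92. With library size as the only scaling 9 kinases were below DMSO, where 21.2% of all genes were. For CDK1 and NEK2 the nearest libraries were then almost level. CDK1 had 3072 of 40218240 counts in YW-LF replicate 1, against 2916 of 37754168 in DMSO replicate 2. NEK2 had 2297 and 2178 counts in these libraries. With YW-LF replicate 1 or YW-LF replicate 2 left out the count was 9 and 10, where 45.3% and 41.5% of all genes were below. With DMSO replicate 1 or DMSO replicate 2 left out the count was 9, where 33.3% and 33.2% of all genes were below. A kinase separated in the full fit stays separated when a library is left out, apart from rescaling. The counts with a library left out could therefore hardly fall.

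**Figure D2:**
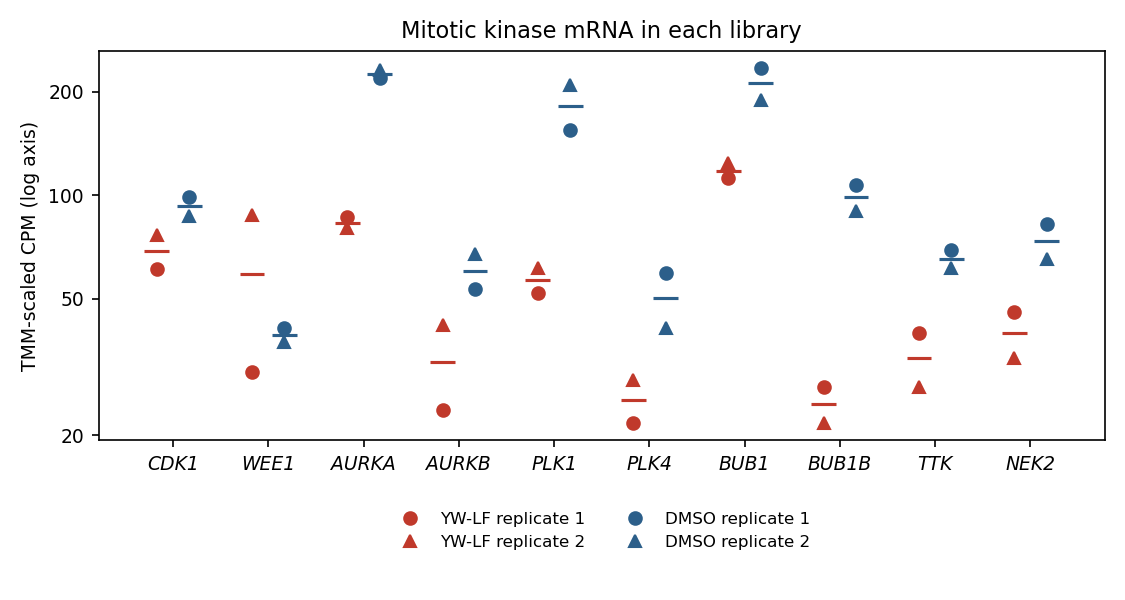
TMM-scaled CPM (log axis) of each mitotic kinase in each library, with YW-LF in red left of DMSO in blue, circles for replicate 1, triangles for replicate 2 and bars for group means. The red points lie below the blue points for 9 kinases, and for WEE1 they lie on either side of them, at 30.5 and 87.6 CPM.

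CDK1 (ENSG00000170312, chromosome 10, 60778331 to 60794852 in GENCODE 29 on GRCh38) had 61.1 and 76.5 CPM in the YW-LF libraries, against 98.9 and 87.1 CPM in the DMSO libraries. The groups did not overlap, but the gap between the nearest libraries was smaller than the gap within the YW-LF pair. The log2 fold change was -0.43 (SE 0.35, 95% interval -1.28 to 0.41, edgeR adjusted p = 0.516), the smallest among the 9 lower kinases. WEE1 (ENSG00000166483, chromosome 11, 9573681 to 9593457), whose product restrains CDK1, had 30.5 and 87.6 CPM with YW-LF, against 41.1 and 37.4 CPM with DMSO. YW-LF replicate 1 was thus the lowest library and replicate 2 the highest. The log2 fold change of WEE1 was 0.59 (SE 0.53, edgeR adjusted p = 0.561), and its sign changed with the YW-LF library left out: it was 1.16 when replicate 1 of YW-LF was left out, where it passed (edgeR adjusted p = 0.00868), and -0.37 when replicate 2 was left out (0.336). The ratio of WEE1 to CDK1 counts was 0.499 and 1.14 in the YW-LF libraries, against 0.415 and 0.429 in the DMSO libraries. The ratio was higher in both YW-LF libraries, by little in replicate 1; this difference was not tested.

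AURKA (ENSG00000087586, chromosome 20, 56369389 to 56392337) encodes Aurora A, which matures centrosomes and builds the spindle. It stood at 86.2 and 80.1 CPM with YW-LF, against 219 and 231 CPM with DMSO. After TMM scaling the groups lay far apart, at 83.2 ± 4.28 CPM in YW-LF and 225 ± 8.68 CPM in DMSO (mean ± SD, n = 2 each). The closeness of the YW-LF pair depended on the TMM factors. Before scaling these libraries held 4332 and 2476 AURKA counts, against 8204 and 7742 in the DMSO libraries. AURKA was 2.71-fold lower with YW-LF, a log2 fold change of -1.44 (SE 0.36), with an adjusted p of 0.130 in edgeR and 0.0203 in DESeq2. AURKB (ENSG00000178999, chromosome 17, 8204733 to 8210600), the catalytic subunit of the chromosomal passenger complex, had 23.7 and 41.9 CPM with YW-LF, against 53.3 and 67.6 CPM with DMSO. The groups did not overlap, although the YW-LF pair differed by 0.82 on the log2 scale. Its log2 fold change was -0.88 (SE 0.42, edgeR adjusted p = 0.285), and -1.36 without YW-LF replicate 2 (edgeR adjusted p = 0.0225) against -0.53 without YW-LF replicate 1 (0.171). The ratio of AURKA to AURKB counts was 3.64 and 1.91 with YW-LF and 4.11 and 3.42 with DMSO.

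PLK1 (ENSG00000166851, chromosome 16, 23677656 to 23690367), which acts from mitotic entry to cytokinesis and whose promoter is shown above, had 51.9 and 61.5 CPM with YW-LF, against 155 and 210 CPM with DMSO. Both YW-LF libraries were well below the lower DMSO library. PLK1 was 3.22-fold lower with YW-LF, a log2 fold change of -1.68 (SE 0.38), with an adjusted p of 0.121 in edgeR and 0.0068 in DESeq2. PLK4 (ENSG00000142731, chromosome 4, 127880861 to 127899195) had 21.8 and 29.0 CPM with YW-LF, against 59.2 and 41.0 CPM with DMSO. Its groups were separate while its DMSO libraries differed by more than its YW-LF libraries in CPM. The log2 fold change of PLK4 was -0.98 (SE 0.39, edgeR adjusted p = 0.231), and -1.21 without YW-LF replicate 2, where it passed (edgeR adjusted p = 0.0387). PLK1 exons overlap those of ERN2 on the opposite strand, and the sources used here do not say whether counting used strand; ERN2 had 2 and 0 counts with YW-LF and 0 and 0 with DMSO.

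BUB1B (ENSG00000156970, chromosome 15, 40161023 to 40221136) encodes BUBR1, a part of the checkpoint complex that inhibits the anaphase-promoting complex. It had 27.7 and 21.8 CPM with YW-LF, against 107 and 90.2 CPM with DMSO. It had the largest log2 fold change of the 10 in size, at 24.7 ± 4.21 CPM in YW-LF and 98.6 ± 11.9 CPM in DMSO (SD, n = 2 each). It was 3.99-fold lower (log2 -2.00, SE 0.37, 95% interval -2.87 to -1.12), with an adjusted p of 0.121 in edgeR and 0.000828 in DESeq2, and 2.63% of all genes tested had a lower log2 fold change. Without a count filter it also passed in edgeR (adjusted p = 0.0454), as the only kinase, where 0.718% of 16718 genes were called lower. BUB1B shares exons with the readthrough gene BUB1B-PAK6, which had 1 and 0 counts with YW-LF and 12 and 12 with DMSO, so few counts were assigned to it. BUB1 (ENSG00000169679, chromosome 2, 110637698 to 110678114), which recruits other checkpoint proteins and marks centromeric chromatin, had 112 and 124 CPM with YW-LF, against 234 and 189 CPM with DMSO. The groups were separate and the log2 fold change was -0.84 (SE 0.37, edgeR adjusted p = 0.260). The ratio of BUB1B to BUB1 counts was 0.247 and 0.175 with YW-LF and 0.457 and 0.477 with DMSO. BUB1B was therefore lower relative to BUB1 in both YW-LF libraries, a difference that was not tested.

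TTK (ENSG00000112742, chromosome 6, 80003887 to 80042527), the checkpoint kinase MPS1 that acts upstream of BUB1 at kinetochores, had 39.6 and 27.7 CPM with YW-LF, against 69.1 and 61.4 CPM with DMSO. NEK2 (ENSG00000117650, chromosome 1, 211658657 to 211675630) had 45.7 and 33.5 CPM with YW-LF, against 82.5 and 65.1 CPM with DMSO. In both genes the groups were separate and YW-LF replicate 2 was the lowest library. The log2 fold change was -0.95 for TTK (SE 0.37, edgeR adjusted p = 0.222) and -0.90 for NEK2 (SE 0.37, edgeR adjusted p = 0.242). Both passed without YW-LF replicate 1, TTK at -1.24 (edgeR adjusted p = 0.00977) and NEK2 at -1.14 (0.0163), and neither passed without YW-LF replicate 2, at -0.73 and -0.70. Processed copies of AURKA, BUB1 and NEK2 are annotated elsewhere in the genome, and whether reads were shared with them was not tested.

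**Figure D3:**
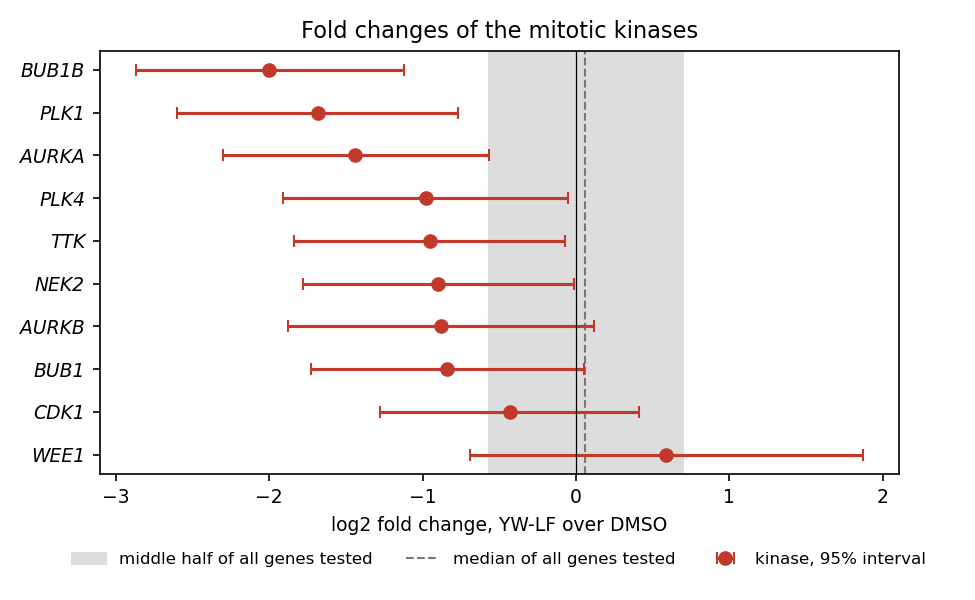
Log2 fold changes, YW-LF over DMSO, of the mitotic kinases (points) with 95% intervals (bars) from edgeR, beside the middle part of all 13816 genes tested (grey, -0.57 to 0.70, the 25th to 75th percentile) and their median (dashed, 0.06). The intervals of BUB1B, PLK1 and AURKA lie furthest from 0 and those of AURKB, BUB1, CDK1 and WEE1 include it.

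The treated libraries differed from each other in how much each kinase was lower. Relative to the mean of the DMSO libraries, YW-LF replicate 1 stood at -0.36 for WEE1, -0.61 for CDK1 and -0.69 for NEK2 on the log2 scale, and at -1.83 for BUB1B. YW-LF replicate 2 stood at 1.16 for WEE1, -0.28 for CDK1 and -0.53 for AURKB, and at -2.18 for BUB1B. All 10 kinases were thus below the DMSO mean in replicate 1, and 9 in replicate 2. BUB1B, PLK1 and AURKA were the 3 lowest in both. When YW-LF replicate 1 was left out, 6 kinases passed in edgeR (5 lower and WEE1 higher), where 20.7% of all genes passed lower and 21.0% higher. When YW-LF replicate 2 was left out, 5 passed, all lower, where 10.2% of all genes passed lower and 10.1% higher. AURKA, PLK1 and BUB1B passed in both fits. Without DMSO replicate 1 or without DMSO replicate 2, 0 kinases passed, where 0.194% and 0.111% of all genes were called lower and 0.318% and 0.332% higher. In each such fit the lone library is assumed to vary like the remaining pair.

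**Figure D4:**
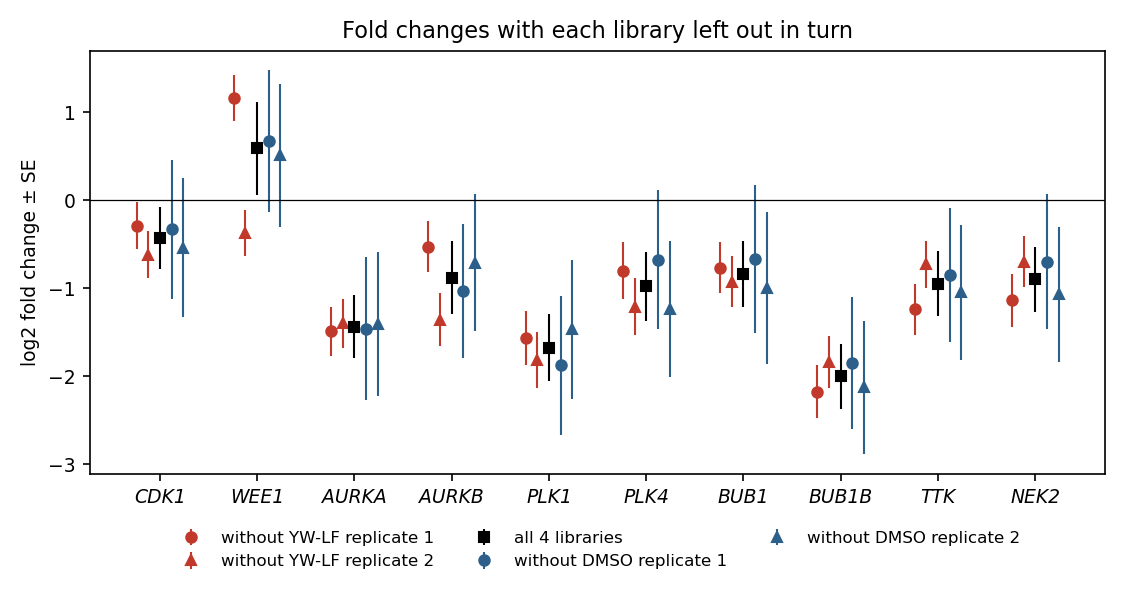
Log2 fold change ± SE of each mitotic kinase with all 4 libraries (black squares) and with each library left out in turn (red, a YW-LF library left out; blue, a DMSO library left out). The sign holds for 9 kinases, whose groups do not overlap with all 4 libraries, so leaving out a library could hardly change it. WEE1 moves between 1.16 and -0.37 with the YW-LF library left out.

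Levels of different kinases were compared per length, as counts per kilobase of annotated exon scaled to the same total in every library, as for TPM. In YW-LF replicate 1 the order was AURKA (113), BUB1 (110), CDK1 (107), PLK1 (83.2), AURKB (64.3), NEK2 (56.8), TTK (37.1), BUB1B (26.3), WEE1 (25.5) and PLK4 (19.5). In YW-LF replicate 2 it ran from CDK1 (69.5), BUB1 (63.1), AURKB (58.9), AURKA (54.2) and PLK1 (51.1) down to BUB1B (10.7). In the DMSO libraries AURKA and PLK1 held the top places, with 224 and 195 in replicate 1 and 150 and 167 in replicate 2, and PLK4 (41.6 and 18.3) and WEE1 (26.9 and 15.6) the bottom ones. BUB1B stood at 79.4 and 42.6 in DMSO, beside NEK2 at 80.3 and 40.2. The places of AURKA and PLK1, and of BUB1B and NEK2, changed between the DMSO libraries, so neither pair has a firm order. In both YW-LF libraries BUB1B ranked below NEK2 and TTK, whereas in both DMSO libraries it ranked above TTK. These values compare genes within a library and not a gene between libraries.

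Of 24 activators, inhibitors and binding partners of the 10 kinases, 17 had less mRNA in both YW-LF libraries than in both DMSO libraries and 3 had more, where 27.8% and 28.0% of all genes did. The median log2 fold change was -0.75 and 0 passed in edgeR over all genes; 8 were lower and 0 higher at an unadjusted p under 0.05, where 9.01% of all genes were lower and 11.5% higher. The 3 of lowest p were the kinetochore scaffold KNL1, which binds BUB1 and BUBR1 and is phosphorylated by MPS1, at -2.21 (SE 0.39), INCENP, the scaffold that activates Aurora B, at -1.90 (SE 0.37), and CCNA2, cyclin A2, at -1.94 (SE 0.39). Each had an edgeR adjusted p of 0.121. KNL1 had 22.3 and 14.8 CPM with YW-LF, against 93.7 and 77.7 CPM with DMSO. INCENP had 39.4 and 48.1 CPM with YW-LF, against 149 and 178 CPM with DMSO. AURKB, the kinase that INCENP activates, stood at -0.88 as given above; the difference between them was not tested. Other partners were chosen for mention by role after their values were seen. The B-type cyclins of CDK1 stood at 0.02 (CCNB1, SE 0.47) and -0.82 (CCNB2, SE 0.34). The CDK1-activating phosphatases CDC25A, CDC25B and CDC25C stood at -1.62 (SE 0.47), -0.59 (SE 0.36) and -0.53 (SE 0.39). In the same list CKS2 was highest at 1.55 (SE 0.65), and CKS1B stood at 0.17 (SE 0.51). MAD1L1 and FZR1 were also above 0, at 0.34 (SE 0.36) and 0.33 (SE 0.34). PKMYT1, the other kinase that inhibits CDK1, stood at -0.66 (SE 0.51), while WEE1 had no firm sign, as given above. TPX2, which activates Aurora A, stood at -0.81 (SE 0.52), and the PLK4 partner STIL at -1.05 (SE 0.35).

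Of 17 other protein kinases with roles in mitosis, 7 were lower in both YW-LF libraries than in both DMSO libraries and 3 were higher, 41.2% and 17.6% of the list; the median was -0.30. AURKC, the Aurora kinase best known from meiosis, was at 3.03 (SE 0.74, edgeR adjusted p = 0.127) from few counts, 95 and 86 with YW-LF and 10 and 10 with DMSO. It lay opposite in sign to AURKA and AURKB, and reads shared between these related genes were not tested. The cytokinesis kinase CIT was at -1.48 (SE 0.37) and MELK at -1.16 (SE 0.35). Of 9 tested NEK kinases other than NEK2, 3 were below and 3 above, with a median of 0.01; NEK3 was at 1.35 (SE 0.47), NEK9, which acts upstream of NEK6 and NEK7 in mitosis, at 0.82 (SE 0.35) and NEK6 at -0.74 (SE 0.40). Of 19 CDKs other than CDK1, 2 were below and 6 above, with a median of 0.18; CDK17 was at 1.27 (SE 0.39), CDK7, which activates CDK1 by phosphorylation, at 0.83 (SE 0.34) and CDK4 at 1.02 (SE 0.48). The NEK counts are each 33.3% of their list and the CDK counts 10.5% and 31.6% of theirs, beside 27.8% downward and 28.0% upward over all genes. No gene of these lists passed in edgeR over all genes.

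A list of 18 genes held phosphatases that act against mitotic kinases and regulators of these phosphatases. Of these, 8 were lower in both YW-LF libraries than in both DMSO libraries and 2 were higher, 44.4% and 11.1% of the list. Over all genes the shares were 27.8% and 28.0%. The median of the list was -0.26. PPP1CC, a catalytic subunit of PP1, was at -1.15 (SE 0.42), and the PP2A subunits PPP2R5B and PPP2R5D at 1.01 (SE 0.40) and -0.85 (SE 0.37). Of 7 genes of the MuvB complex and its partners, 4 lay below and 1 above, 57.1% and 14.3% of the list, beside the same 27.8% and 28.0% of all genes, with a median of -0.90. MYBL2, which encodes B-MYB, had 17.3 and 18.2 CPM with YW-LF, against 110 and 170 CPM with DMSO (log2 fold change -2.98, SE 0.41, edgeR adjusted p = 0.119). The histone-binding MuvB subunit RBBP4 was at -1.35 (SE 0.39) and its subunit LIN37 at 1.5 (SE 0.53). No gene of either list passed in edgeR over all genes.

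**Figure D5:**
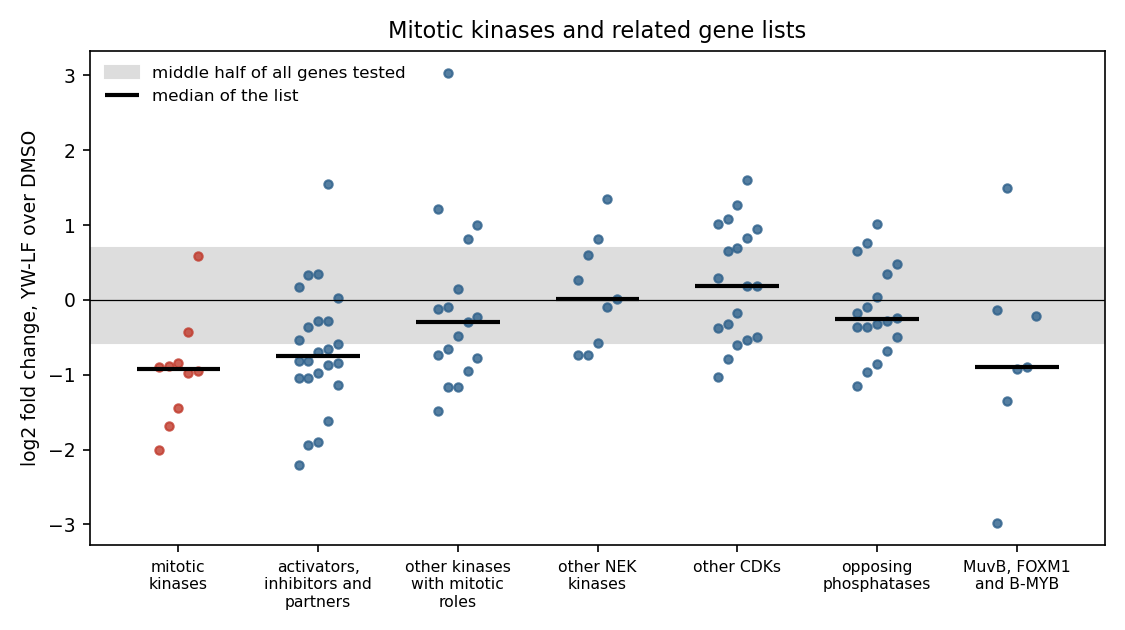
Log2 fold changes, YW-LF over DMSO, of the tested genes (points) of each list, with list medians (black bars) and the middle part of all genes tested (grey, the 25th to 75th percentile). The mitotic kinases (red) have a median of -0.93, their partners -0.75, and the other CDKs 0.18.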

How the data were processed

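Gene expression was measured by mRNA sequencing in 4 libraries of MDA-MB-231 cells, 2 given YW-LF and 2 given DMSO, grouped by their labels. The deposited values are raw read counts for each gene: whole numbers whose totals differ between libraries. No aligner or counter is given in the sources used here. Mouse builds (GRCm38, mm10) stand in the submitters' processing notes, but the 20263 identifiers are all human Ensembl genes and were used as such. Symbols matched 20148 identifiers; the other 115 held 0.102% of counts and stayed in. A further deposited table held identical DMSO counts (40526 of 40526 values); 2 columns without a label were not used.

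Counts were tested with edgeR 4.0.16 in R 4.3.3: filterByExpr (13816 genes kept), TMM scaling, a quasi-likelihood F-test without covariates, and Benjamini-Hochberg adjustment at 0.05. SE was the absolute log2 fold change divided by the square root of F. At these depths 1 count equals 0.0249 to 0.0288 unscaled CPM. The code was tested on simulated data. DESeq2 1.42.0, limma 3.58.1 (voom), other scalings and filters, removal of mitochondrial genes, a replicate term and leaving out each library were the alternatives. No library was a copy of another: chi-square divided by its degrees of freedom was 512 within the YW-LF pair and 222 within the DMSO pair. The kinases and lists were chosen with earlier results of these data known. Named were all 10 kinases and the 3 genes of lowest p in each other list, plus partners marked as chosen later. Exon lengths and positions came from GENCODE 29; protein sequences were not used here.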

Additional observations from a re-analysis of the deposited data

How the results depend on the processing

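The log2 fold change kept its sign in 119 of 120 values of a single kinase under an alternative. The exception was WEE1, at -0.37 without YW-LF replicate 2 (1.16 when replicate 1 of YW-LF was left out instead). For the other kinases, whose groups did not overlap, leaving out a library could hardly change the sign. The remaining alternatives refit the same 4 libraries, so the count of kept signs says little about stability. The count of kinases with every YW-LF library below every DMSO library was 9 to 10 under the alternatives that give it. The 10 came from the fit without YW-LF replicate 2, which leaves 1 YW-LF library. Leaving out a library could hardly lower this count. CDK1 and NEK2 were only just separated under library size alone. The median of the 10 was -0.84 with library size as the only scaling and -1.07 to -0.78 with a library left out. In edgeR with all 4 libraries 0 genes and 0 kinases passed; DESeq2 called 1451 genes and 3 kinases, edgeR without a count filter 275 genes and 1 kinase, and leaving out a library 64 to 5882 genes and 0 to 6 kinases. Limma-voom, the other scalings, the stricter filter and the removal of mitochondrial genes gave 0 genes. The cause of these differences was not tested, except that a fit without a library rests on the spread of the remaining pair. With the replicate number as a block, 331 genes and 1 kinase (BUB1B, edgeR adjusted p = 0.0411) passed. The labels tie the numbers to no batch, and deviations of same-numbered libraries from their group means correlated at 0.0368 across genes, so the numbers were not taken as pairs. Without YW-LF replicate 1 the median of all genes moved by -0.11 on the log2 scale, and the kinases then stood at -0.92 relative to it. The kinases had 672 counts or more per library, whereas AURKC had 10 counts in each DMSO library. Whether depth limited the calls was not tested.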
